A study of Rattus norvegicus with 6 samples.

Results

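The 6 genes described here are given as markers of astrocytes, the star-shaped glia of the brain and spinal cord. They are Gfap (ENSRNOG00000002919), Aqp4 (ENSRNOG00000016043), S100b (ENSRNOG00000001295), Slc1a2 (ENSRNOG00000005479), Slc1a3 (ENSRNOG00000016163) and Gja1 (ENSRNOG00000000805). They were chosen as a list of Ensembl identifiers, and all 6 are among the 22250 identifiers of the count table. The list supplies the symbols. Neither the count table nor the reference gene table used here pairs identifiers with symbols, so this pairing could not be checked.

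RNA was sequenced after poly(A) selection from rat tissue that all labels call brain. The EAP group, for experimental autoimmune prostatitis, came from rats injected with rat prostate protein mixed with Freund's adjuvant, and has 3 libraries. The other 3 libraries are labelled normal, and whether those rats received adjuvant alone is not given in the sources used here. Strain, age, brain region, the time after injection and the number of animals per library are not given either. P-values therefore measure the spread between these libraries, which may be technical.

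Astrocytes clear glutamate and potassium from around synapses, line blood vessels with their end-feet, and are joined to each other by gap junctions. When nervous tissue is injured or inflamed they become reactive, and a rise of Gfap is the usual sign of that state. Some of the 6 genes are made mainly in astrocytes within the brain but also in cells elsewhere. S100b is also known from Schwann cells, fat cells and cartilage, Gja1 from heart, smooth muscle and fibroblasts, and Aqp4 from kidney and skeletal muscle.

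Gfap, Aqp4 and Slc1a2 were at or near 0 in all 6 libraries, while S100b, Slc1a3 and Gja1 were detected in each, with at least 627 reads per library. No gene of the 6 passed the test between EAP and normal. In rat brain, Gfap, Aqp4 and Slc1a2 are known as abundant astrocyte transcripts, so under the given pairing of identifiers and symbols these values go against both the astrocyte label of the list and the brain label of the libraries. The reason was not tested. The genes are therefore called by name below, and their levels are not read as a measure of astrocytes. In bulk RNA, fewer cells of a type and less RNA per cell cannot be told apart.

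The libraries held 12534210 to 14669760 counts. A floor of 3 counts per library corresponded to 0.205 to 0.235 CPM (reads scaled to a common library size, with TMM factors that correct for composition). Floors and counting intervals cover counting error only. On the first principal component of all genes (37.1% of the variance), the libraries nearest the middle were EAP replicate 1 (-6.59) and normal replicate 2 (9.38), with the remaining EAP libraries at -32.5 and -29.1 and the remaining normal libraries at 28.7 and 30.2. A fitted value without both of these libraries is given for each gene, and values without 1 of them for some genes. Leaving out the libraries that separate the groups least favours larger differences over all genes, so those values are no separate support.

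Gfap encodes the intermediate filament protein of mature astrocytes. In order of replicate number, as for all values that follow, it had 3, 0 and 4 reads in EAP and 11, 15 and 5 reads in normal. In CPM these were 0.235, 0 and 0.297 in EAP and 0.86, 1.11 and 0.341 in normal. All 3 normal libraries lay above all 3 EAP libraries, although EAP replicate 3 and normal replicate 3 differed by a single read. Of the 17041 genes with at least 1 read, 7.38% were separated in this direction. Summed over libraries, Gfap had 7 reads in EAP (95% exact Poisson interval 2.81 to 14.4) and 31 in normal (21.1 to 44). The ratio of EAP to normal, scaled for depth, was 0.233 with a 95% exact interval of 0.0865 to 0.539, which leaves out the variation between libraries.

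Gfap was too low for the expression filter of the main test. Fitted with no filter, it had an unadjusted p of 0.0403 and an adjusted p of 0.5 (edgeR quasi-likelihood test, Benjamini-Hochberg over all genes), with a fitted log2 difference of -2.06 (SE 0.908). A fitted fold at so few reads depends on the prior count and is no bound. In that fit 9.58% of genes had an unadjusted p under 0.05 and 0.0411% an adjusted one. The unadjusted p was 0.113 without EAP replicate 2, 0.139 without normal replicate 2 and 0.144 without both EAP replicate 1 and normal replicate 2, and over the 12 alternatives to this fit it ran from 0.0248 to 0.144. Gfap was thus not higher in any EAP library than in any normal library, and its difference did not pass the adjusted threshold.

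Aqp4 encodes the water channel of astrocyte end-feet. It had 0, 1 and 3 reads in the EAP libraries and 0, 11 and 4 in the normal libraries. Normal replicate 2 held 11 of the 15 normal reads, and the groups overlapped. The summed reads were 4 in EAP (1.09 to 10.2) and 15 in normal (8.4 to 24.7), with a ratio of 0.275 (0.0664 to 0.863) for counting error alone. With no filter the edgeR adjusted p was 0.684 for a fitted log2 difference of -1.77 (SE 1.28). That difference was -0.47 without normal replicate 2, -1.24 without EAP replicate 1 and 0.05 without both, so normal replicate 2 moved it most of these. It was -2.98 without EAP replicate 3.

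Slc1a2 encodes GLT-1, the transporter that takes up most of the glutamate released in the forebrain. It had 0, 0 and 2 reads in EAP and 2, 0 and 8 in normal. Normal replicate 3 held 8 of the 10 normal reads, and 3 of the 6 libraries had none. The summed reads were 2 in EAP (0.242 to 7.22) and 10 in normal (4.8 to 18.4), and their ratio of 0.206 had a counting interval of 0.022 to 0.968. With no filter the edgeR adjusted p was 0.684 for a fitted log2 difference of -2.06 (SE 1.48). The highest libraries for Gfap, Aqp4 and Slc1a2 were normal replicates 2, 2 and 3, so the 3 genes did not share 1 order of the normal libraries. Without normal replicate 3 the Slc1a2 difference was -0.53, and without EAP replicate 3 it was -4.74. It was -1.57 without EAP replicate 1, -2.62 without normal replicate 2 and -2.14 without both.

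**Figure D1:**
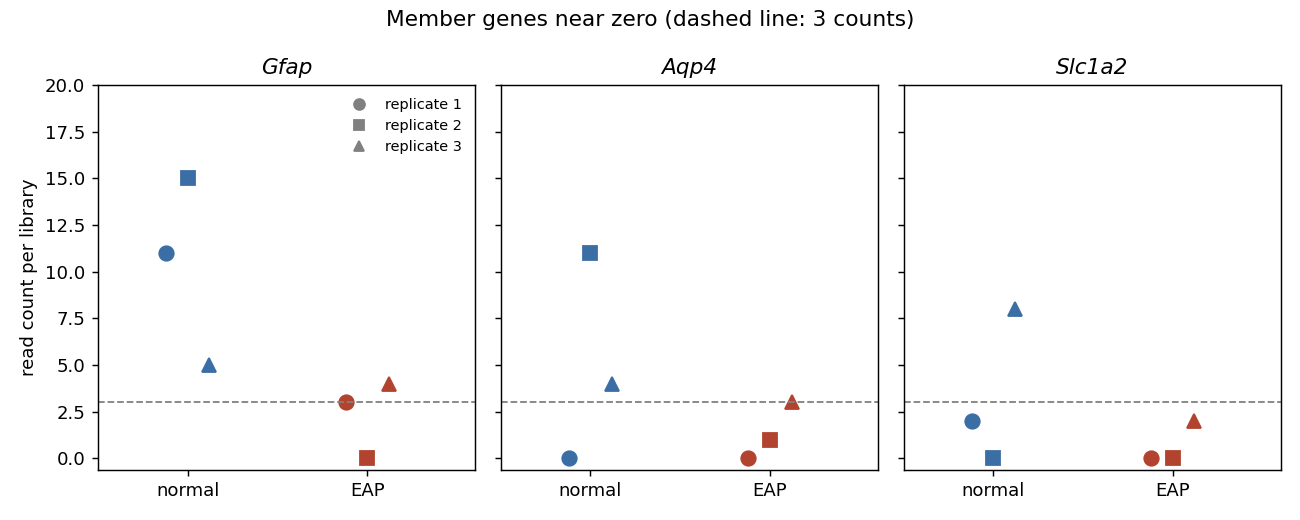
Read counts (vertical axis) of Gfap, Aqp4 and Slc1a2 in each of the 3 normal and 3 EAP libraries, with the replicate number as the marker shape and a dashed line at 3 counts. Every point lies between 0 and 15 reads, and only for Gfap do the normal libraries all lie above the EAP libraries.

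Promoter sequence is shown for Gfap and Slc1a2 because the first listed start sites of these near-zero genes differ widely in CpG content. The sequences are from RefSeq on build GRCr8, not the build of the counts, and all 6 symbols had an entry. The last 60 bases before the start site are printed 5′ to 3′ on the strand of the gene, with CpG pairs in capitals, for Gfap (chr10:88361662-88361721, minus strand) and for the first listed start site of Slc1a2 (chr3:109460049-109460108, plus strand).
Gfap: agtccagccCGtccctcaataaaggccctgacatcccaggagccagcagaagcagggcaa
Slc1a2: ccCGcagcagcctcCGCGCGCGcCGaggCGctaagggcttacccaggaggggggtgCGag
Over the 250 bases before the start, Gfap had 1 CpG and Slc1a2 had 33. Of 33469 RefSeq promoters, with a median of 5, fewer CpG pairs were found in 7.83% than in Gfap and in 96.4% than in Slc1a2. The other listed start site of Slc1a2 had 2 CpG pairs, below the median, and which start site gave the few reads was not tested.

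S100b encodes a calcium-binding protein. Its level was 629, 612 and 563 CPM in EAP, beside 812, 640 and 576 CPM in normal. Normal replicate 1 stood above the rest, and the other 5 libraries lay within 563 to 640 CPM. EAP averaged 601 ± 34.5 CPM (SD, n = 3) and normal 676 ± 122 CPM (SD, n = 3). The log2 difference, EAP minus normal, was -0.17 (SE 0.145, 95% interval -0.50 to 0.16), with an edgeR adjusted p of 0.693. Without normal replicate 1 it was -0.016, and without both EAP replicate 1 and normal replicate 2 it was -0.24.

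Slc1a3 encodes GLAST, the glutamate transporter of radial glia, cerebellar Bergmann glia and astrocytes. Its level was 70, 51.6 and 55.2 CPM in EAP and 49, 57.6 and 54.1 CPM in normal. EAP replicate 1 was the highest library, and the remaining EAP libraries lay inside the normal range. EAP averaged 58.9 ± 9.76 CPM (SD, n = 3) and normal 53.6 ± 4.29 CPM (SD, n = 3). The log2 difference was 0.14 (SE 0.131, 95% interval -0.16 to 0.43; edgeR adjusted p = 0.732). It was -0.0052 without EAP replicate 1, 0.185 without normal replicate 2 and 0.049 without both.

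Gja1 encodes the connexin that forms most gap junctions between astrocytes. Its level was 78.3, 118 and 97.6 CPM in EAP and 82.5, 89.4 and 79 CPM in normal. EAP replicates 2 and 3 lay above every normal library, and EAP replicate 1 lay below them all. EAP averaged 97.9 ± 19.7 CPM (SD, n = 3) and normal 83.7 ± 5.27 CPM (SD, n = 3). The log2 difference was 0.23 (SE 0.141, 95% interval -0.09 to 0.55; edgeR adjusted p = 0.571). It was 0.07 without EAP replicate 2 and 0.37 without EAP replicate 1. Without both EAP replicate 1 and normal replicate 2 it was 0.41, with an edgeR adjusted p of 0.17, the lowest of the settings tried for this gene.

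**Figure D2:**
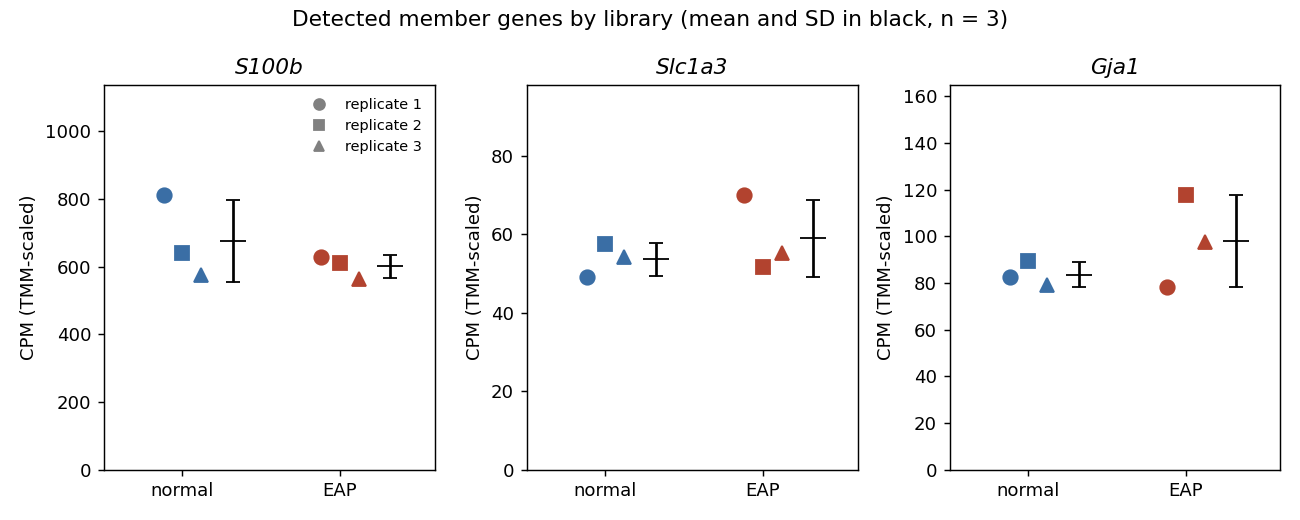
Levels in CPM (vertical axes from 0, TMM-scaled) of S100b, Slc1a3 and Gja1 in each library, with the mean and SD of 3 libraries in black. The groups overlap in all 3 genes, with normal replicate 1 highest for S100b (812 CPM), EAP replicate 1 highest for Slc1a3 (70 CPM) and EAP replicate 2 highest for Gja1 (118 CPM).

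Of the 3 genes tested, 0 were called at an adjusted p under 0.05 by edgeR, and DESeq2 and limma voom also called 0. The edgeR background was 0.0304% of the 13155 genes that passed the filter. From the same genes DESeq2 called 172 and limma voom 1. DESeq2 can leave genes of low mean out of its adjustment, so its count may rest on fewer genes. At an unadjusted p under 0.05 the count was also 0 of 3, beside 11.1% of all genes, and groups without overlap were seen in 0 of 3 beside 16.8%. The unadjusted edgeR p of Gja1 was under 0.05 in 2 of the 16 alternatives. It was 0.0135 without EAP replicate 1 and 0.0124 without both EAP replicate 1 and normal replicate 2. Both settings leave out EAP replicate 1, the lowest EAP library for Gja1, so they are not separate and favour a lower p. Over all genes, 1705 and 2074 were under 0.05 in those fits, against 1464 in the main fit, and the shares were not computed. The median log2 difference of the 3 was 0.14, against 0.009 over all genes tested, and the medians of its size were 0.17 and 0.16. The 95% intervals run from 0.709-fold to 1.12-fold for S100b, 0.897-fold to 1.35-fold for Slc1a3 and 0.939-fold to 1.46-fold for Gja1. These are the differences compatible with the 6 libraries, and they do not show that the genes were unchanged.

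**Figure D3:**
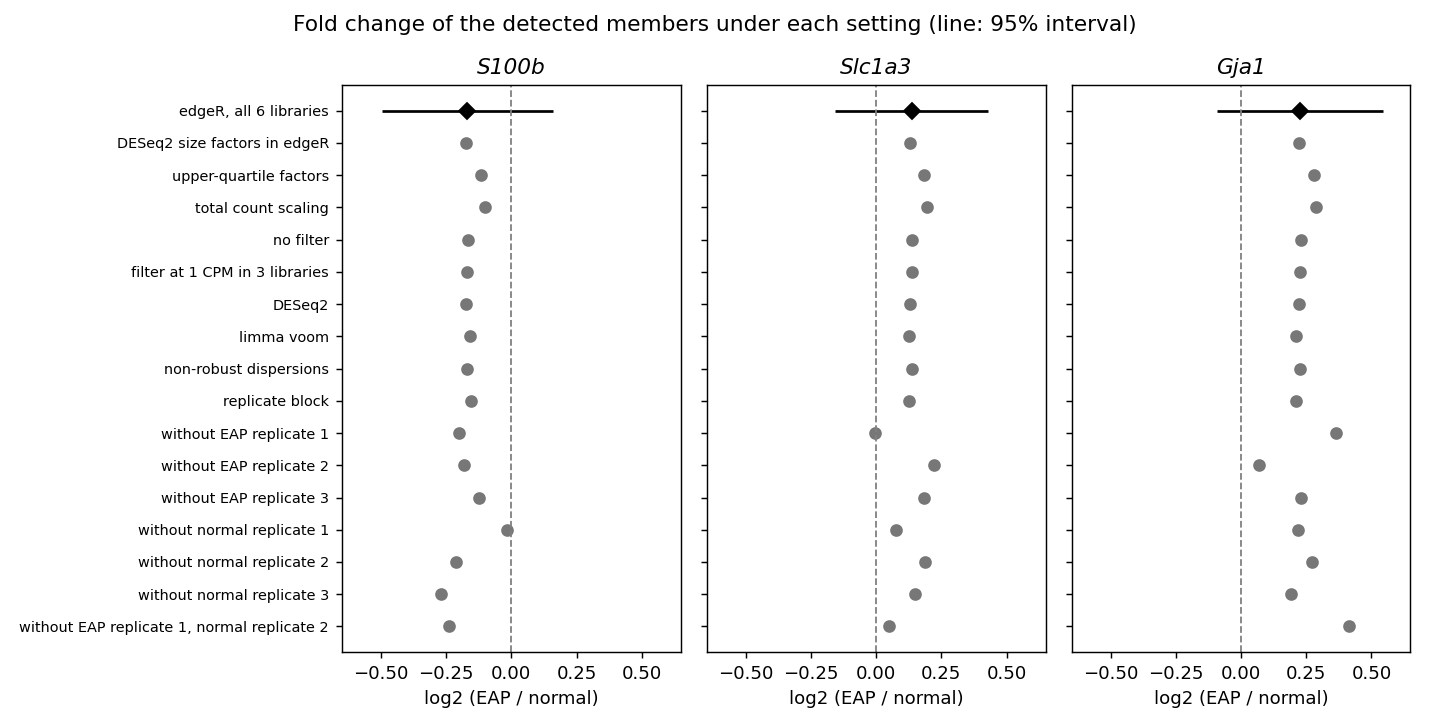
Log2 ratio of EAP to normal (horizontal axis) for S100b, Slc1a3 and Gja1 under each setting (rows), with the diamond and line showing the edgeR value on all 6 libraries and its 95% interval. All 3 intervals include 0, and among single libraries the points move most when normal replicate 1 (S100b), EAP replicate 1 (Slc1a3) or EAP replicate 2 (Gja1) is left out.

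No shared rise and fall of the 3 detected genes was seen across the 6 libraries, which are too few to show that there was none. The ratio of Gja1 to Slc1a3 reads within a library, which needs no scaling, was 1.12, 2.28 and 1.77 in EAP and 1.68, 1.55 and 1.46 in normal. Its lowest and highest values both fell in EAP, a 2.04-fold range, and the difference between groups was inside that spread (exact permutation p = 0.8, two-sided; 0.1 is the smallest possible). The ratio of Gja1 to S100b was 0.124, 0.192 and 0.174 in EAP and 0.102, 0.14 and 0.137 in normal. EAP replicates 2 and 3 were above all normal libraries and EAP replicate 1 was not (exact permutation p = 0.3). The ratio of Slc1a3 to S100b was 0.111, 0.0843 and 0.0981 in EAP and 0.0604, 0.0899 and 0.094 in normal, with normal replicate 1 lowest (exact permutation p = 0.4). Adjusted over the 3 ratios, these p-values were 0.8, 0.6 and 0.6.

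**Figure D4:**
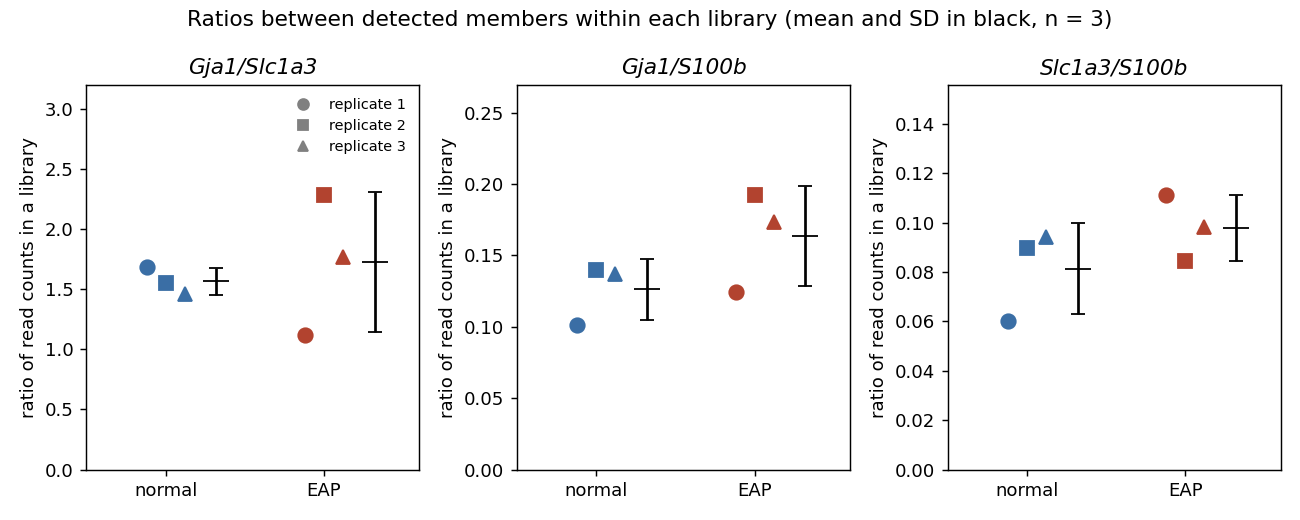
Ratios of read counts (vertical axes from 0) between pairs of the detected genes in each library, with the mean and SD of 3 libraries in black. The Gja1 to Slc1a3 ratio spans 1.12 to 2.28 within EAP and 1.46 to 1.68 within normal.

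Across the 6 libraries all 3 pairs had negative correlations of log2 CPM. Pearson's r was -0.40 for Gja1 and Slc1a3 (exact permutation p = 0.417), -0.26 for Gja1 and S100b (p = 0.597) and -0.33 for Slc1a3 and S100b (p = 0.44), each with an adjusted exact p of 0.597 over the 3 pairs. Spearman's rho was -0.37, -0.26 and -0.14 (exact permutation p = 0.497, 0.658 and 0.803; adjusted p = 0.803 for each). With the 2 libraries farthest from the median of the first gene left out, r was -0.28, 0.22 and 0.25, so the sign of the last 2 rested on those libraries. For deviations from the group means, r was -0.75 for Gja1 and Slc1a3, -0.048 for Gja1 and S100b and -0.18 for Slc1a3 and S100b, as a description over the same 6 libraries. Ranked by r with Slc1a3 among 13154 genes, Gja1 stood at place 10211 and S100b at place 9566. For S100b, Gja1 was at place 8583 and Slc1a3 at place 9060. Over these 6 libraries the 3 genes were thus not close to each other in pattern, which does not show that they vary apart. The spread of log2 CPM within groups was 0.189 for S100b, 0.183 for Slc1a3 and 0.218 for Gja1 (pooled SD). Its median over all genes tested was 0.191.

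The mean pattern of all 6 genes, centred log2(CPM + 0.5), was -0.16, -0.20 and -0.02 in the EAP libraries, beside 0.05, 0.25 and 0.08 in the normal ones. Its lower values in EAP came from the genes with 0 to 15 reads: on this scale EAP minus normal averaged -0.56 over Gfap (-0.88), Aqp4 (-0.43) and Slc1a2 (-0.36). Over S100b (-0.16), Slc1a3 (0.13) and Gja1 (0.21) it averaged 0.06, with no sign common to these genes. Among 5602 other genes whose log2 CPM averaged 5 or more, ENSRNOG00000005287 (r = 0.985 over 6 libraries) and ENSRNOG00000011498 (r = 0.972) had the most similar pattern. ENSRNOG00000005287 had 59.5, 57.6 and 64.8 CPM in EAP and 68.5, 75.5 and 71.3 CPM in normal, with an edgeR adjusted p of 0.412. ENSRNOG00000011498 had 66.9, 67.2 and 78 CPM in EAP and 76.2, 90.7 and 83.3 CPM in normal, with an edgeR adjusted p of 0.449. These matches were picked from many genes over 6 points and are a description only.

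In the 250 bases before each RefSeq start site of the 6 genes, 3 motifs of factors known in astrocytes were searched on both strands. TTCNNNGAA, a site for STAT factors, was found in 0 of the 6 genes and in 7.67% of all promoters. The NFI motif, the full palindrome, was found in 0 of 6 and in 0.0359% of all. The AP-1 motif TGACTCA was found in Gja1 alone and in 4.05% of all. Genes were counted over all their listed start sites and the shares per promoter, so these are unlike measures. It is printed because it was the only match of the 3 motifs in the 6 genes. The match, in capitals, reads as the motif on the opposite strand and lies 58 to 52 bases before the listed start site (chr20:36302495-36302523, plus strand, GRCr8).
Gja1: ctccttccagtTGAGTCAgtggcttgaaa
A match is a description of these letters and says nothing of binding.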

How the data were processed

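Read counts per Ensembl identifier were deposited by the authors in 1 table, as whole numbers without scaling, per the file headers. The build Rnor_6.0 and the tools HISAT2 2.2.1, featureCounts 2.0.3, Trimmomatic 0.39 and DESeq2 1.36.0 are named in the submitters' processing notes. The sources used here give no settings, annotation release or strand option, so reads of a gene and an antisense partner cannot be told apart. The 6 genes and all lists were chosen with earlier results of these data known. Of the 22250 genes, 13155 passed the edgeR filter by group, and edgeR 4.0.16 (R 4.3.3) tested them by quasi-likelihood in a model of group alone, with robust dispersions, TMM factors and Benjamini-Hochberg adjustment over all genes kept (threshold 0.05). CPM values were computed from the deposited counts. Gfap, Aqp4 and Slc1a2 did not pass the filter and were fitted with no filter (at least 1 read). Alternatives were other scaling factors, other filters, DESeq2 1.42.0, limma voom (3.58.1), non-robust dispersions, a replicate block and leaving out libraries. Fits were tested on simulated data. All 6 genes are named by rule, with the 2 genes nearest their mean pattern. Further lists of astrocyte, reactive and other cell type genes, 11 in all, were fixed by symbol and could not be applied, since 0 of the 47357 reference entries carry an Ensembl identifier. Transcript lengths were not used, so levels are not compared between genes. Libraries were not copies of each other (lowest chi-square per degree of freedom 22).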

Additional observations from a re-analysis of the deposited data

How the results depend on the processing

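No gene of the 6 that was tested was called in any of the 16 alternatives. The fit with no filter tested all 6, and the others tested 3 or 4. Where 4 were tested, Gfap was the gene added, so Aqp4 and Slc1a2 were tested only with no filter. Gfap was added without EAP replicate 1, 2 or 3 or without normal replicate 3. Without normal replicate 1 or 2, its highest libraries (0.86 and 1.11 CPM), it was not. It thus passed only through the group where it was higher, and these fits are no support for a difference. Without EAP replicate 3 and without normal replicate 3, its unadjusted edgeR p was under 0.05, as it was for 1013 and 965 genes. S100b kept its negative and Gja1 its positive log2 difference in 16 of 16 (-0.27 to -0.016 and 0.07 to 0.41). Slc1a3 stayed positive in 15 of 16 (-0.0052 to 0.22), and was -0.0052 without EAP replicate 1. With no filter, alternatives combined with it were chosen after the data were seen: Gfap and Slc1a2 stayed negative in 12 of 12 (-2.64 to -1.49 and -4.74 to -0.53) and Aqp4 in 11 of 12, with 0.0543 without both EAP replicate 1 and normal replicate 2. The adjusted p of Gfap ran from 0.464 to 0.811. The unadjusted p of Gfap was under 0.05 in 6 of the 12. These fits reuse the same Gfap reads and are not separate support. The share of all genes under 0.05 was 9.58% in the edgeR fit with no filter, and was not computed for the 12. Over all genes, the 4 calls became 0 with upper-quartile factors or non-robust dispersions (1536 and 1512 genes at an unadjusted p under 0.05), 1 with total count scaling or limma voom, 7 with no filter, 172 with DESeq2, 80 with the replicate block, 0 to 47 when 1 library was left out and 333 without both EAP replicate 1 and normal replicate 2; the cause was not tested. The replicate numbers share no stated origin, and deviations of same-numbered libraries correlated at 0.0515 to 0.0718, with 6 of 6 libraries closest to their own number. Deviations sum to 0 within each group, so these 6 matches are not independent and do not show a pairing. With the block the log2 differences were -0.16 for S100b, 0.13 for Slc1a3 and 0.21 for Gja1, with 0 called. The gene lists by symbol were not run. At 0 to 15 reads, Gfap, Aqp4 and Slc1a2 allow no firm comparison.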
